A study of Mus musculus with 4 samples.

Results

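Opposite-strand neighbouring peaks of the RNA helicase eIF4A3 were examined in mouse embryonic stem cells: peaks that have a peak on the other strand of the same chromosome at most 10000 nt away, counted as the bases between them. They were 1084 of the 30763 peaks in the list, or 3.52%, split into 576 plus-strand and 508 minus-strand peaks. The members were chosen by the positions and strands of peaks that were themselves called from the comparison of pulled-down with input RNA. Every value below therefore comes from the contrast that chose the members and is given as a description, with no test. Coordinate neighbours on opposite strands formed 160 adjacent pairs within the limit, which held 316 of the members. The remaining 768 members lay behind such a peak on their own strand. A pair is convergent where the plus-strand peak comes first in rising coordinate, so that the 3′ sides face each other, and divergent where the minus-strand peak comes first, so that the 5′ sides face each other. There were 65 convergent and 95 divergent pairs.

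The series holds 4 enhanced crosslinking and immunoprecipitation (eCLIP) libraries of the J1 line, an embryonic stem cell line of strain 129S4/SvJae, of which 2 were input RNA made with no antibody and 2 were pulled down with an antibody to eIF4A3. The labels name no genetic change in these cells, which were kept feeder-free in medium with serum and leukemia inhibitory factor and were irradiated with 400 mJ/cm2 of ultraviolet light at 254 nm. The labels call the 2 libraries of each group biological replicates. The deposited list gives each peak 1 fold change and 1 −log10 p, both the authors' values, so no value per library, no replicate spread and no read depth can be given.

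eIF4A3 is the RNA-clamping helicase at the core of the exon junction complex, which splicing leaves on messenger RNA a short way upstream of exon junctions. Neighbouring genes on opposite strands lie either head to head, where the start sites adjoin and often share 1 promoter region that is transcribed both ways, or tail to tail, where the 3′ ends meet and the final exons of both transcripts come between the last junctions. In mammalian genomes, head-to-head neighbours with close start sites are common among housekeeping genes. A peak list with strand can thus show 2 bound transcripts side by side, provided that the bound RNA came from the listed strand, a point no source used here states.

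The genes at most of these positions are not reported here, since the list is on the build mm9 and the annotation at hand, GENCODE release M21, is on GRCm38. In some stretches the printed positions nevertheless meet exons of the peak's own strand. Such overlaps made up 37.7% of peaks on chromosome 16, 29.2% on chromosome 19 and 13.1% on chromosome 8, and at most 6.84% on any other chromosome. A pair was named only where both of its peaks overlapped an exon of a coding transcript on their own strand at the printed positions, a rule set after the positions had been seen. It is used here to name 7 of the 160 pairs. No pair had both peaks on opposite-strand exons and 1 partner lay on a same-strand exon in 18 pairs and on an opposite-strand exon in 14. Around the 7 named pairs, none of the nearest 10 peaks on each side overlapped an opposite-strand exon. Such overlaps were rare on these chromosomes as a whole, at 0 of 993 peaks on chromosome 16, 0.959% on chromosome 8 and 2.18% on chromosome 19. Their absence therefore says little about the names. In these 7 pairs, convergent ones lay on a plus- then a minus-strand gene. Divergent ones lay on a minus- then a plus-strand gene. This follows from asking for exons on each peak's own strand, and the rule did not ask whether the gene ends adjoin. The gap between the 2 annotated genes, negative where they overlap, was -39789 nt for Coro7 with Dnaja3. It was -655 nt for Camsap3 with Xab2, -91 nt for Syvn1 with Mrpl49, -54 nt for Ranbp1 with Trmt2a and 161 to 1680 nt in the other pairs.

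The 4 divergent pairs named here were Ranbp1 with Trmt2a, Mcm4 with Prkdc, Coro7 with Dnaja3 and Pcid2 with Cul4a. To show the start regions of genes in divergent pairs, promoter sequences of 3 of these genes follow, from RefSeq on GRCm38.p6, each 250 bases before to 50 bases after the start site, written 5′ to 3′ on the gene's strand. Each is shown because its gene carried the plus-strand peak of a named pair. Capitals mark the dinucleotide CG.
Trmt2a: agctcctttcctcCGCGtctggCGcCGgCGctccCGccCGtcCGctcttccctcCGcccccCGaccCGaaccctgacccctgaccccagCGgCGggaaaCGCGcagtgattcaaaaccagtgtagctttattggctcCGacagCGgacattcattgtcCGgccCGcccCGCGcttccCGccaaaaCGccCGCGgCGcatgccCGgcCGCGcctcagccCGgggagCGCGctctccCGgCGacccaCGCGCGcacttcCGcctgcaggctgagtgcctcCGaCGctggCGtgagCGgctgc
Cul4a: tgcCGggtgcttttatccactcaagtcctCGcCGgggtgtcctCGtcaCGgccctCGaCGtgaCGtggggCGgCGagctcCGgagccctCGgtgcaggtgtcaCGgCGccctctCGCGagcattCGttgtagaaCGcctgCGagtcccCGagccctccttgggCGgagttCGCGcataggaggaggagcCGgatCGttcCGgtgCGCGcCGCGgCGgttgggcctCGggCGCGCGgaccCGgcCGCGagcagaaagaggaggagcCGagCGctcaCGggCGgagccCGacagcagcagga
Dnaja3: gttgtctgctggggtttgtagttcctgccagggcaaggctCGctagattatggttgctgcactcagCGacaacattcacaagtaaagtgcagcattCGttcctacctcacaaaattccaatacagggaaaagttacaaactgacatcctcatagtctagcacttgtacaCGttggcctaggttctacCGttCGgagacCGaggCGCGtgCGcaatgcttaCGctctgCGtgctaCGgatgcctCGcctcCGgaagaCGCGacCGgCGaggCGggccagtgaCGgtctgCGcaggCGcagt
The Trmt2a sequence is at chr16:18248633-18248932 and that of Cul4a at chr8:13105373-13105672, while Dnaja3 is at chr16:4683820-4684119, all on the plus strand. At the printed positions the Cul4a and Dnaja3 windows lie between the peaks of their pairs. The Trmt2a window does not: it holds the positions of the Ranbp1 peak, which lie upstream of the Ranbp1 start site at 18248694 on GRCm38, in a stretch where the builds may differ. The table held promoters for 6 of the 8 genes. The start sites of Ranbp1 and Trmt2a lay 188 nt apart, so that the promoter windows of the 2 genes shared 288 nt. Those of Pcid2 and Cul4a lay 279 nt apart and shared 221 nt. The start sites of Coro7 and Dnaja3 were 4349 nt apart and their windows did not meet. Trmt2a held 42 CG dinucleotides and Cul4a 43, counts reached by 3.03% and 2.61% of the 32851 promoters of this length in the table, whose median was 7. Dnaja3 held 23, a count reached by 21.5% of them. The letters TATAAA, searched on both strands, were in none of the 6 windows and in 13.6% of all promoters. The letters CCAAT, on either strand, were in the Trmt2a and Dnaja3 windows, not in that of Cul4a, and in 37.4% of all promoters.

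Ranbp1, which encodes a regulator of the Ran nuclear transport cycle, and Trmt2a, which encodes a transfer RNA methyltransferase, carried the named pair with the shortest distance, 443 nt. The minus-strand Ranbp1 peak, on chromosome 16 from 18248704 to 18248807 (mm9, as for all peaks below), was 104 nt wide, with a fold change of 5.65 and a −log10 p of 50.3. The Trmt2a peak on the plus strand, from 18249251 to 18249310, was 60 nt wide, with a fold change of 11.1 and a −log10 p of 9.15. The peak with the higher fold change was thus the one with the smaller −log10 p. Mcm4 encodes a subunit of the replicative DNA helicase, and its neighbour Prkdc the catalytic subunit of the DNA-dependent protein kinase. Their peaks lay 1698 nt apart. The Mcm4 peak, from 15636282 to 15636317, had a fold change of 20.7, and the Prkdc peak, from 15638016 to 15638135, one of 10.7 with a −log10 p of 42.6. Neither had another peak on its strand within 10000 nt. Around the Mcm4 and Prkdc peaks only 4 of the 20 nearest peaks overlapped a same-strand exon, and around the Ranbp1 and Trmt2a peaks 12 of 20. Of its 120 nt, the Prkdc peak ran 93 nt past the exon that it met. Of the 104 nt of the Ranbp1 peak, 75 nt lay before its exon. The names of these 2 pairs are therefore less sure than the others, and their positions within exons are not interpreted.

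The other named divergent pairs lay where most surrounding peaks met same-strand exons, 16 of 20 around Coro7 and Dnaja3 and 19 of 20 around Pcid2 and Cul4a. Coro7, a coronin of the Golgi, had a peak from 4679552 to 4679599 in coding sequence of its first exon, which ended 0 nt from the 3′ end of that exon, at 7.61-fold. Dnaja3, a mitochondrial DnaJ co-chaperone, had a peak from 4684139 to 4684236 in its first exon, 108 nt short of the exon's 3′ end, at 5.69-fold. Pcid2, a component of the messenger RNA export machinery, had a peak from 13100325 to 13100365 on chromosome 8 that ended 0 nt from the 3′ end of exon 2, at 4.03-fold. Cul4a, a cullin scaffold of ubiquitin ligases, had a peak from 13105854 to 13105905 that ran 2 nt past the 3′ end of exon 1, at 4.22-fold. Of these 4 peaks, 3 ended within 2 nt of an exon junction. The Ranbp1, Trmt2a, Mcm4 and Prkdc peaks, whose names are less sure, are not part of this count. At the printed positions the Ranbp1 peak ended 156 nt and the Mcm4 peak 96 nt short of the exon's 3′ end. The Trmt2a peak ran 12 nt and the Prkdc peak 93 nt past it. No peak among them would thus add to those that ended within 2 nt.

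The 3 named convergent pairs had peaks in first, inner and final exons. Chka, which encodes choline kinase, had a peak in the untranslated part of its final exon, exon 12, on chromosome 19 from 3893465 to 3893521, plus strand, at 8.52-fold. It faced a peak of 7 nt in Tcirg1, a subunit of the proton-pumping vacuolar ATPase, from 3896436 to 3896442 at 25.2-fold. The Tcirg1 peak lay in exon 19 of 20, 166 nt from the 3′ end of that exon. Its −log10 p was 6.42, low beside the median of 10.4 over all peaks. The same fold change and −log10 p recur in unrelated peaks, as on chromosome 2 from 29888857 to 29888891 and chromosome 5 from 114830230 to 114830292. The distance between the Chka and Tcirg1 peaks was 2914 nt. Syvn1, a ubiquitin ligase of the endoplasmic reticulum, had a peak in exon 14 of 16 from 6051407 to 6051440 at 4.20-fold, 139 nt from the exon's 3′ end. Mrpl49, a mitochondrial ribosomal protein, faced it at 6251 nt with a peak in exon 1 of 4 from 6057692 to 6057730, 33 nt from the exon's 3′ end, at 5.04-fold. Camsap3, which binds microtubule minus ends, had a peak in exon 13 of 19 on chromosome 8 from 3604334 to 3604400 at 4.74-fold, 676 nt from the exon's 3′ end. Xab2, a protein of splicing and DNA repair, had a peak of 6 nt in its last exon, exon 19, from 3610214 to 3610219 at 5.67-fold. None of these 6 peaks ended within 30 nt of the 3′ end of its exon. For Chka and Xab2, in final exons, that end is no junction. Toward the 5′ end of the exon, the Xab2 peak lay 0 nt, the Tcirg1 peak 5 nt and the Syvn1 peak 14 nt away. The other convergent peaks lay 55 nt or more from that end. With 4 divergent and 6 convergent peaks, chosen by where the builds coincide, this describes these genes and not all pairs.

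**Figure D1:**
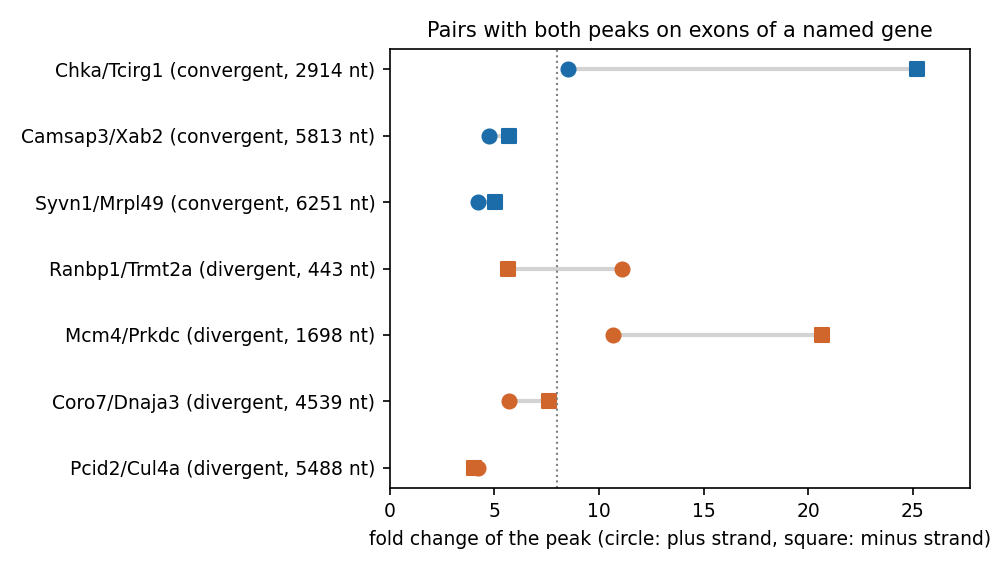
Fold change of both peaks of the 7 pairs with gene names, with kind and distance in nt beside each name. Circles are plus-strand peaks, squares minus-strand peaks, and the dotted line marks 8-fold. The Tcirg1 peak at 25.2-fold, with a −log10 p of 6.42, and the Mcm4 peak at 20.7-fold stand farthest to the right. Both peaks are past 8-fold for Mcm4 with Prkdc and for Chka with Tcirg1. The names of Mcm4 with Prkdc and of Ranbp1 with Trmt2a are less sure than the others.

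The kinds of pair differed most at short distance. Of the 95 divergent pairs, 30 lay under 1000 nt apart, as against 1 of the 65 convergent pairs. Below 500 nt there were 19 divergent pairs and no convergent pair. Between 1000 and 1999 nt the counts were 9 divergent and 3 convergent. From 2000 to 3999 nt the order turned, with 24 convergent and 8 divergent pairs, and from 4000 to 6999 nt the counts were 24 and 25. The median distance was 4811 nt for convergent pairs (quartiles 3303 and 6484 nt) and 4025 nt for divergent pairs (quartiles 658 and 6595 nt). With the pairs under 1000 nt set aside, the medians were 4834 nt for 64 convergent and 5578 nt for 65 divergent pairs. The bounds of these classes were set with the distances in view.

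**Figure D2:**
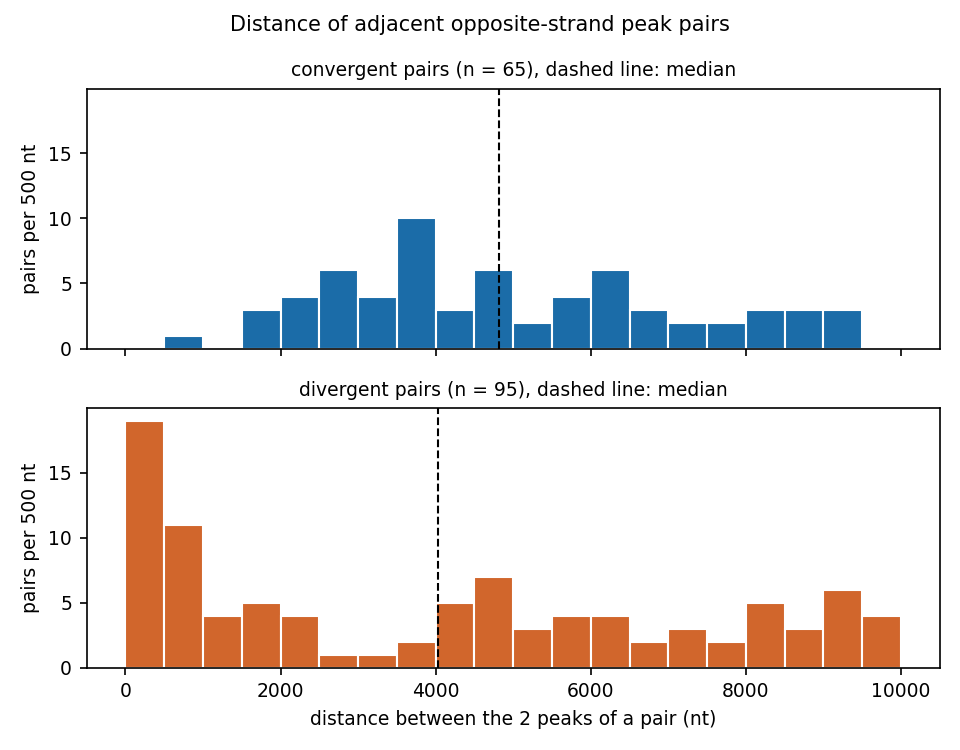
Number of adjacent opposite-strand pairs per 500 nt of distance, in nt, for the 65 convergent pairs (top) and the 95 divergent pairs (bottom), with the median as a dashed line. The divergent pairs gather under 1000 nt, where 30 of them lie beside 1 convergent pair, and the convergent pairs are most frequent from 2000 to 4999 nt, where there are 33.

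Along a chromosome, changes from plus to minus and from minus to plus must alternate, so the 2 kinds are equal in number to within 1 per chromosome when distance is not limited. There were 1017 convergent and 1015 divergent changes of strand in all. Within 10000 nt lay 6.39% of the convergent changes (Wilson 95% interval 5.05 to 8.06%, counting error only) and 9.36% of the divergent ones (7.72 to 11.3%). These intervals overlap, which does not show that the shares are equal, and the difference was not tested. The larger number of divergent pairs as a whole was not kept in 2 other settings. A run is a set of peaks on 1 strand joined by gaps of at most 10000 nt. Where only peaks in runs of 2 or more were kept, 39 convergent and 33 divergent pairs were found, but the difference under 1000 nt remained, at 1 against 12. Among peaks of at least 8-fold alone there were 17 pairs of each kind, of which 0 convergent and 3 divergent lay under 1000 nt.

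For comparison, neighbouring coding genes on opposite strands were measured in GENCODE M21 by length alone, at the junctions of their coding transcripts that lay nearest to each other. Head-to-head neighbours whose first exon junctions lay within 10000 nt of each other numbered 1632, with a median of 1219 nt between those junctions (quartiles 530 and 5230 nt), and 46.4% lay under 1000 nt. For tail-to-tail neighbours the distance between the last junctions was within 10000 nt in 2217 cases, with a median of 3750 nt (quartiles 1858 and 6173 nt), and 10.7% lay under 1000 nt. The same share was 31.6% among the divergent and 1.54% among the convergent peak pairs. The gene counts cover all annotated coding genes, bound or not, so they are set beside the peak pairs as a scale and were not tested against them.

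The 5 closest divergent pairs had distances of 109 to 359 nt. The closest was on chromosome 11, with a minus-strand peak from 90499346 to 90499390 at 6.20-fold and a plus-strand peak from 90499500 to 90499586 at 4.98-fold, both single on their strand within 10000 nt. On chromosome 2 the peaks from 26244688 to 26244722 and from 26244895 to 26244952 lay 172 nt apart at 6.95-fold and 6.41-fold, and they began runs of 13 and 5 peaks. Next came chromosome 3 at 273 nt, with peaks from 116297678 to 116297769 at 4.03-fold and from 116298043 to 116298101 at 6.72-fold. On chromosome 16, 338 nt separated a peak from 48993974 to 48994050 at 4.11-fold and one from 48994389 to 48994492 at 6.51-fold. The fifth, again on chromosome 3, had 359 nt between the peaks from 88753805 to 88753881 at 4.03-fold and from 88754241 to 88754346 at 6.64-fold. All 10 peaks of these pairs, at 35 to 106 nt, were wider than the list's median of 32 nt, and none reached 8-fold.

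The 30 divergent pairs under 1000 nt lay on 15 chromosomes and spanned distances of 109 to 918 nt. Both partners were single peaks in 6 of them, 1 partner was single in 12, and both belonged to longer runs in 12. The fold changes of their 60 peaks ran from 4.01 to 25.2, with a median of 6.01, and 12 of the 60 were past the stringent threshold of at least 8-fold with p at most 0.001. Of the whole list, 32.3% passed it. Both partners passed in 1 of the 30 pairs, 1 partner in 10 and neither in 19.

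The 5 closest convergent pairs were farther apart, from 782 to 2046 nt. The closest lay on chromosome 8, where a plus-strand peak from 125005392 to 125005433 at 4.39-fold ended a run of 22 peaks and a minus-strand peak from 125006216 to 125006241 at 8.89-fold ended a run of 50. On chromosome 17, 1811 nt separated a single peak from 34974668 to 34974698 at 7.82-fold from a peak at 34976510 to 34976550 at 14.1-fold. A second pair on chromosome 8 had 1837 nt between a peak of 2 nt at 86247030 to 86247031, at 10.4-fold, and one from 86248869 to 86248897 at 5.99-fold. The remaining pairs were on chromosome 15, with 1984 nt between peaks from 76425467 to 76425508 at 5.42-fold and from 76427493 to 76427497 at 4.39-fold, and on chromosome 11, with 2046 nt between peaks from 115445036 to 115445041 at 4.03-fold and from 115447088 to 115447122 at 5.04-fold. At least 1 run of 14 or more peaks belonged to each of these 5 pairs.

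At the limit itself, the convergent pair just inside had a distance of 9328 nt, on chromosome 14, with fold changes of 5.72 and 8.88, and the one just outside 10050 nt, on chromosome 7, with 7.67 and 6.84. The divergent pair just inside had a distance of 9926 nt, on chromosome 15, with fold changes of 5.04 and 4.97, and the one just outside 10005 nt, on chromosome 11, with 9.08 and 7.44.

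Peak width set the kinds apart. The median width was 28 nt for the 130 peaks of convergent pairs (quartiles 15 and 43 nt) and 56 nt for the 190 peaks of divergent pairs (quartiles 38 and 75 nt). The difference was present on both strands, with medians of 30 and 27 nt for convergent plus- and minus-strand peaks and of 57 and 54 nt for divergent ones. Divergent pairs at 1000 nt or more had a median of 54 nt and those under 1000 nt one of 58.5 nt, so width was high at both distances. A width of 50 nt or more was reached by 113 of the 190 divergent peaks (59.5%) and 27 of the 130 convergent peaks (20.8%), as against 27.6% of the list. Both partners reached it in 33 divergent and 2 convergent pairs. Peaks of 10 nt or less numbered 22 of the 130 convergent and 7 of the 190 divergent peaks, beside 15.2% of the list. The convergent count was thus near the share of the list. Peaks of 100 nt or more numbered 0 and 16, beside 1.95% of the list.

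Widths also varied with the place of a peak in its run, in pairs and elsewhere. Outside the members, the 5′-most peaks of runs of 2 or more had a median width of 43 nt, the 3′-most 37 nt, the inner peaks 27 nt and peaks alone in their run 55 nt. The 107 peaks of divergent pairs that were 5′-most in runs of 2 or more had a median of 49 nt, and the 99 peaks of convergent pairs that were 3′-most in such runs 27 nt. A single-peak run made up at least 1 side of 62 of the 95 divergent pairs and of 26 of the 65 convergent pairs. It made up both sides in 19 and 3 pairs. The list held 6570 runs, of which 2549 were single peaks that were not members and 106 single members. Single runs were thus more frequent in divergent than in convergent pairs. The counts for pairs are per pair and those for the list per run, so they cannot be set against each other directly. Single peaks were wide throughout the list. The values within runs of 2 or more stood in the same order as the values over all pairs. Merging peaks within 50 nt left the medians at 28.5 and 60 nt.

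**Figure D3:**
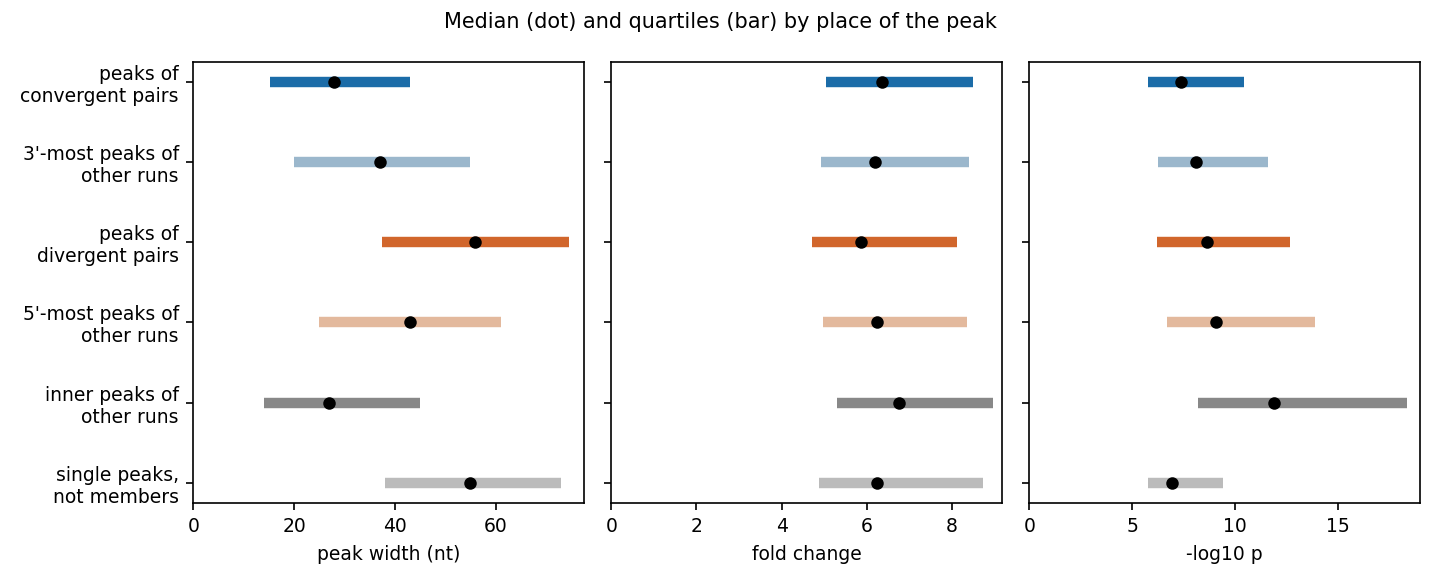
Median (dot) and quartiles (bar) of peak width in nt, fold change and −log10 p for peaks of convergent and divergent pairs, beside the 3′-most, 5′-most, inner and single peaks that are not members. Peaks of divergent pairs are the widest of the classes drawn at 56 nt, next to single peaks at 55 nt, and peaks of convergent pairs, at 28 nt, are close to inner peaks at 27 nt.

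Fold changes differed less between the kinds. The median was 6.36-fold for peaks of convergent pairs (quartiles 5.04 and 8.51) and 5.86-fold for peaks of divergent pairs (quartiles 4.71 and 8.11). On the log2 scale the medians, with 95% order-statistic intervals for counting error only, were 2.67 (2.50 to 2.86) and 2.55 (2.47 to 2.70). The intervals overlap, which does not show that the medians are equal. Over all 1084 members the median was 6.43-fold, as against 6.59-fold for the other 29679 peaks. Past the stringent threshold were 334 members (30.8%), beside the 32.3% of the whole list, a share near the background. By kind, 39 of 130 convergent (30.0%) and 49 of 190 divergent peaks (25.8%) passed. The 5′-most and 3′-most peaks of runs without members passed in 28.4% (1068 of 3765) and in 1055 of 3763 cases, and inner peaks in 34.0%.

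The −log10 p of pair peaks was low beside the list. Its median was 7.36 for convergent and 8.62 for divergent pairs, and 10.4 for all peaks. The members behind the paired peaks had a median of 11.4. In runs outside the members the 3′-most peaks had a median of 8.08, the 5′-most 9.09 and the inner peaks 11.9, the same order as in the pairs, where the facing 3′ sides were the lower. Single peaks had medians of 6.49 among members and 6.95 elsewhere.

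Peaks of the whole list were also grouped by their distance to the nearest opposite-strand peak on each side, whether or not they were its neighbour. The classes beyond 10000 nt lie outside the limit on that side and are shown as a scale. With that peak on the 5′ side, the median width was 56.5 nt for 98 peaks under 1000 nt away, 46 nt for 72 peaks from 1000 to 2999 nt, 38 nt from 3000 to 6999 nt, 36.5 nt from 7000 to 10000 nt, 34 nt from 10001 to 20000 nt and 30 nt from 20001 to 50000 nt. Width thus stood lower with each step away from the divergent partner, except between the classes from 3000 to 4999 nt and from 5000 to 6999 nt, which were equal. With the opposite-strand peak on the 3′ side, width stayed between 25.5 and 30.5 nt from 1000 to 50000 nt. Fold changes showed no such order. With the partner on the 3′ side the median was 7.24-fold for 78 peaks from 1000 to 2999 nt, 6.86 for 157 peaks from 3000 to 4999 nt, 6.19 from 5000 to 6999 nt and 6.56 from 7000 to 10000 nt. With it on the 5′ side the 5 classes ran from 5.63 to 6.36.

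**Figure D4:**
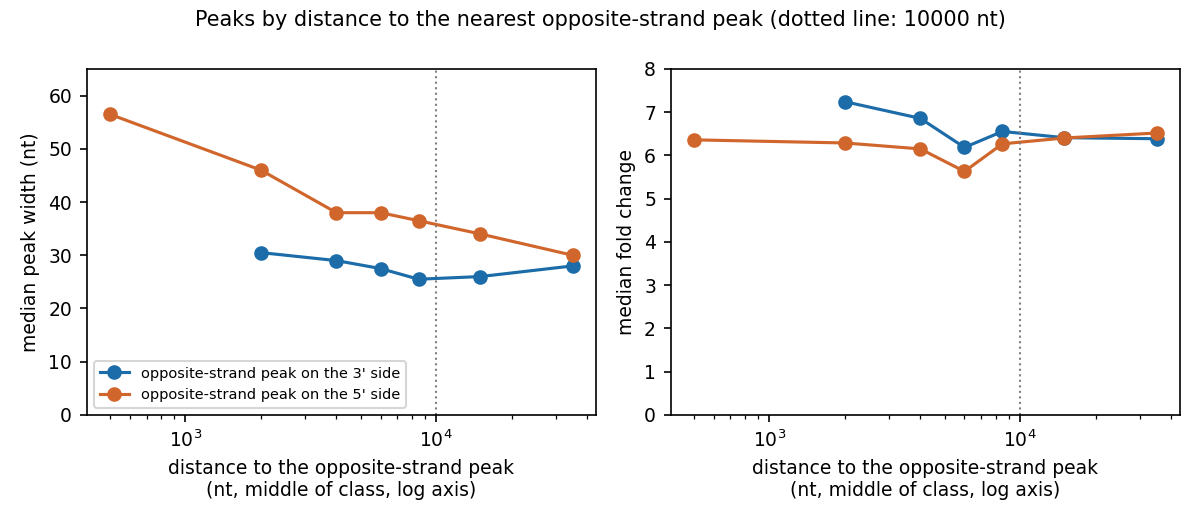
Median width in nt (left) and median fold change (right) of peaks by distance to the nearest opposite-strand peak on the 3′ side (blue) or 5′ side (orange), at the middle of each class on a log axis, for classes of at least 20 peaks. Width stands at 56.5 nt close to a peak on the 5′ side and at 30 nt beyond 20000 nt, and between 25.5 and 30.5 nt with a peak on the 3′ side.

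The partners of a pair were not alike in fold change. Across the 65 convergent pairs the fold changes of the plus- and minus-strand peaks had a Spearman rho of 0.08, and across the 95 divergent pairs one of 0.01. These are descriptions over pairs from 1 list whose libraries and depth are shared. For −log10 p rho was -0.03 and 0.06, and for the number of peaks in the 2 runs 0.00 and 0.13. For width it was -0.19 in convergent and 0.11 in divergent pairs. Over all 160 pairs, whose 2 kinds differed in width, the rho of width was 0.25. Partners differed by a median factor of 1.40 in convergent and 1.46 in divergent pairs, and lay within 2-fold of each other in 52 of 65 and 79 of 95 pairs. Since the list begins at 4-fold and most peaks lie below 9-fold, a small factor says little about likeness. Both partners passed the stringent threshold in 3 convergent and 5 divergent pairs, and 1 of the 2 in 33 and 39.

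**Figure D5:**
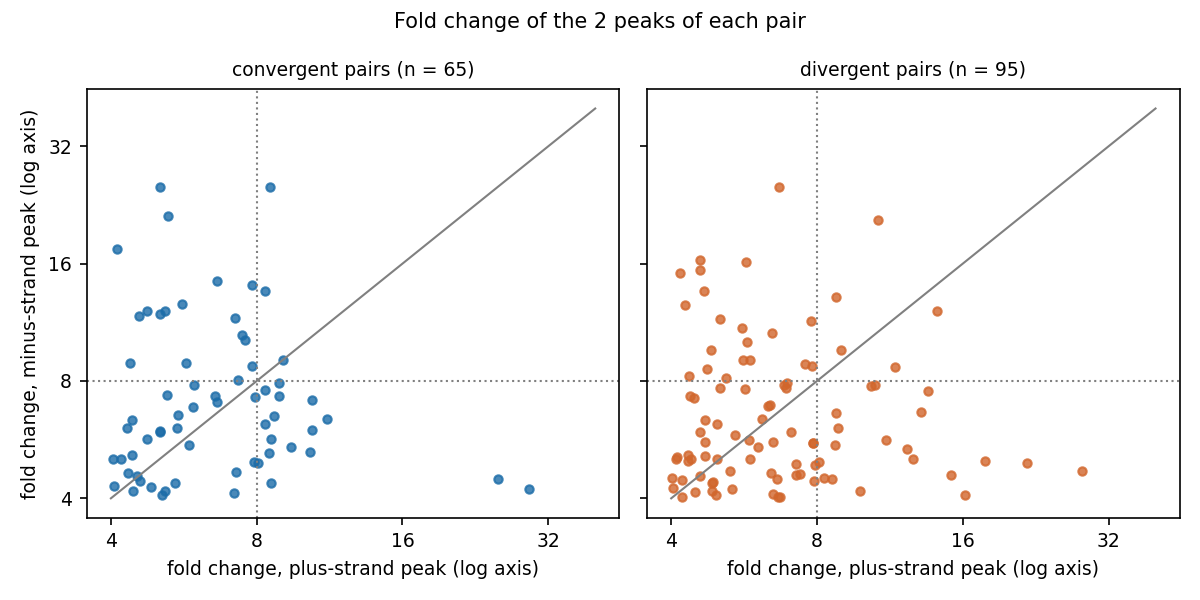
Fold change of the plus-strand peak against that of the minus-strand peak on log axes for 65 convergent pairs (left) and 95 divergent pairs (right), with dotted lines at 8-fold and a grey line of equality. In 29 convergent and 51 divergent pairs neither peak is past 8-fold, in 33 and 39 pairs 1 peak is, and in 3 and 5 pairs both are.

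Some pairs had a weaker partner that was itself past 8-fold. Among divergent pairs, Mcm4 with Prkdc had 10.7 as the lower fold change. Another was on chromosome 6, where a minus-strand peak from 124779309 to 124779328 at 9.58-fold and a plus-strand peak from 124780247 to 124780291 at 8.99-fold lay 918 nt apart and began runs of 14 and 5 peaks. It was the only pair under 1000 nt with both peaks past 8-fold. Among convergent pairs, both peaks of a pair on chromosome 8, from 108219111 to 108219115 and from 108224668 to 108224718, had the same fold change of 9.08 at a distance of 5552 nt. Their −log10 p values differed, at 5.37 and 8.98. The same fold change recurs elsewhere, as in the peak on chromosome 10 from 127846742 to 127846806, so the match says little about likeness. Chka with Tcirg1 was next, and then a pair on chromosome 4 with 3908 nt between peaks from 155261253 to 155261272 at 8.32-fold and from 155265181 to 155265202 at 13.6-fold.

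Convergent pairs joined longer runs than divergent pairs. The smaller run of a pair had a median of 2 peaks and the larger 8 in convergent pairs, as against 1 and 4 in divergent pairs. Both runs held at least 5 peaks in 17 of 65 convergent and 10 of 95 divergent pairs, and at least 10 peaks in 5 and 3. The pair with the largest smaller run was convergent and lay on chromosome 17, where a plus-strand run of 32 peaks ended at 35283810 to 35283833 and a minus-strand run of 35 peaks at 35286326 to 35286345, 2492 nt apart, with fold changes of 10.4 and 7.15 at the facing ends. It was followed by the pair of 22 and 50 peaks on chromosome 8 described above, and by runs of 23 and 18 peaks on chromosome 17 that faced each other across 3850 nt, with peaks from 24732088 to 24732130 at 8.32-fold and from 24735981 to 24735987 at 7.56-fold. The 3 divergent pairs between the largest runs were near the limit of distance. Runs of 15 and 19 peaks on chromosome 7 began 9074 nt apart, at 31241517 to 31241539 and 31250614 to 31250664. Runs of 24 and 13 peaks on chromosome 17 began 9203 nt apart, at 56723902 to 56723953 and 56733157 to 56733176. Runs of 12 and 10 peaks on chromosome 11 began 9295 nt apart, at 3093363 to 3093437 and 3102733 to 3102801.

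Most pairs stood alone. Linking pairs that shared a run gave 142 chains of 1 pair and 9 chains of 2, each of 1 convergent and 1 divergent pair. Of these 9, the 3 with the most peaks lay on chromosome 10 from 80228943 to 80265180 with 48 peaks, on chromosome 18 from 34763525 to 34811266 with 46 and on chromosome 17 from 56702588 to 56762616 with 45. In 4 cases 1 single peak was partner in both pairs. One of them was the plus-strand peak of chromosome 17 at 34974668 to 34974698, which had a minus-strand peak 1811 nt away on its 3′ side and another 1201 nt away on its 5′ side and lay inside a minus-strand run of 18 peaks. Only 4 of the 160 pairs had a peak inside the span of a run of the other strand.

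Chromosome 8 held the most members, 210 of its 2189 peaks (9.59%), with 10 convergent and 14 divergent pairs. Its changes of strand lay within the limit in 16.3% of cases, as against 2.38% on chromosome 9, the lowest among chromosomes with pairs, and 11.4% on chromosome 17, the next highest. Chromosomes X and Y held no member, with 895 and 12 peaks and 44 and 1 changes of strand. Divergent pairs outnumbered convergent ones on 10 chromosomes, were outnumbered on 7 and were equal on 4, counting the 2 without pairs. Chromosome 1 had 6 divergent pairs and no convergent one, chromosome 16 likewise, and chromosome 10 had 7 convergent and 2 divergent pairs. Without chromosome 8 there were 55 convergent and 81 divergent pairs. These counts per chromosome are small and were not tested.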

How the data were processed

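The data were 4 eCLIP libraries summarised by the authors in 1 peak list for the whole series. Per the submitters' processing notes, cutadapt 1.18, STAR 2.6.1b and the build mm9 were used, without stated roles. The peak caller, the test, the direction of the ratio, any filter and any pooling of replicates are not given in the sources here. The deposited list holds, per the file headers, a log2 fold change and a −log10 p-value per peak. Fold changes were computed as 2 to the power of the deposited log2 value. Its lowest fold change was 4.00 and its lowest −log10 p 5.01, so weaker sites cannot enter any pair. Start and end were both counted as part of the peak, as printed.

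Peaks were sorted by coordinate, and neighbours on opposite strands at most 10000 nt apart, by later start minus earlier end minus 1, formed pairs. Runs join peaks of 1 strand across gaps of at most 10000 nt. Peaks were named by position: the 5 closest pairs of each kind, the 3 with the highest lower fold change, the 3 with the largest smaller run, the 3 chains with the most pairs (ties by number of peaks) and the pairs next to the limit. The stringent threshold was a fold change of at least 8 with p at most 0.001. Since the lowest −log10 p of the list was 5.01, the condition on p removed no peak and the threshold acted on fold change alone. Shares have Wilson 95% intervals. Gene names come from the GRCm38 annotation under the rule given in the text, and coordinates were not converted between builds. A further pair that met the naming rules is not reported here. The members and lists were chosen with earlier results of these data known. No significance test was made. The search was tested on simulated data with planted pairs. Alternatives were other distance limits, a stricter fold change, merged peaks, runs of 2 or more, pairs inside a run left out and chromosome 8 left out. Software was matplotlib 3.10.9, numpy 2.4.6, scipy 1.17.1 and pandas 2.3.3 under Python 3.11.15.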

Additional observations from a re-analysis of the deposited data

How the results depend on the processing

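No paired analysis was possible because each peak has 1 value for all 4 libraries together, and leaving out a replicate could not be done either. Of 109 recomputed values, 71 stayed within 1.5 times the count or inside the 95% interval of the value reported, and 38 moved. Limits of 5000 and 20000 nt moved the number of members to 503 and 2586, the convergent pairs to 37 and 135, the divergent pairs to 59 and 161, the shares of convergent changes of strand to 3.64 and 13.3%, those of divergent changes to 5.81 and 15.9%, the median distance of convergent pairs to 3612 and 10290 nt and that of divergent pairs to 918 and 8286 nt, all by construction. At 5000 nt the median log2 fold change of convergent pairs was 2.87. Among peaks of at least 8-fold there were 129 members, 17 pairs of each kind, shares of 2.74% (convergent) and 2.76% (divergent), a median distance of 6557 nt for divergent pairs, median log2 fold changes of 3.30 (convergent) and 3.29 (divergent), a median width of 45.5 nt in divergent pairs, median −log10 p values of 9.01 and 10.1, and 0 convergent and 3 divergent pairs under 1000 nt. The share of members past 8-fold has no value there. With runs of 2 or more alone there were 678 members, 39 convergent and 33 divergent pairs, a share of divergent changes of 4.797%, a median width of 45 nt in divergent pairs, median −log10 p values of 8.66 and 10.6, and 12 divergent pairs under 1000 nt. The order of the 2 kinds in number of pairs thus turned, and the cause was not tested. Merged peaks passed 8-fold in 33.9% of cases, a share of peaks that carry the highest value of their parts. Without chromosome 8, 0 convergent pairs lay under 1000 nt. Divergent pairs had the wider median under each of the 7 alternatives. The alternatives without chromosome 8 and without pairs inside a run, and all those for width, −log10 p and pairs under 1000 nt, were chosen after seeing the data. Read depth is unknown, so what it limits cannot be measured.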
